A study of Homo sapiens with 6 samples.

Results

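The genes described here are 49 components of the machinery that copies DNA: the proteins that license origins, the MCM helicase and the factors that start it, the sliding clamp and its loader, the replicative polymerases, the enzymes that supply deoxynucleotides, cyclin E, and proteins that assemble chromatin or watch over the fork. They were chosen by symbol from a fixed list, out of 23180 gene symbols in the table, and all 49 passed the filter on low counts. The list was drawn up with earlier results of these data known. RNA-Seq had been performed in A549 cells, a human lung adenocarcinoma line, at passage 11, with total RNA taken in TRIzol 3 days after siRNA transfection. The groups were 3 samples with siControl and 3 with siKMT9α#1, 1 siRNA against KMT9α (gene symbol N6AMT1), the catalytic subunit of a histone methyltransferase that methylates a lysine of histone H4 and works with KMT9β (TRMT112). The cells are labelled WT, both groups come from this single cancer line, and the labels call the samples of a group biological replicates. The comparison asks how these genes were expressed when KMT9α was depleted.

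Before a cell enters S phase, the origin recognition complex, CDC6 and CDT1 load rings of MCM2 to MCM7 onto DNA, a step called licensing, and geminin (GMNN) binds CDT1 to block it afterwards. At the start of S phase, kinases together with MCM10, CDC45 and the GINS complex turn the loaded rings into active helicases, and primase, polymerases, the clamp PCNA and DNA ligase then copy the strands. Many genes of this machinery are targets of E2F transcription factors and are transcribed in late G1 and S phase, so that their RNA is abundant in cells that divide.

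The 6 libraries held 13732353 to 19819968 counts over the genes tested. Epithelial keratins were abundant, KRT8 at 502 to 1346 CPM (counts per 1000000 counts of the library) and KRT18 at 1177 to 2163 CPM, and CDKN2A, which is deleted in A549, was at 0 in all 6 samples. The 5 epithelial markers summed to 3214 to 3576 CPM in siControl and 1725 to 1816 CPM in siKMT9α#1, a sum carried by KRT8 and KRT18. In the same order of groups, KRT19 was at 51.4 to 61.6 CPM and 35.3 to 36.9 CPM. EPCAM was low, at 3.46 to 4.25 CPM and 0.475 to 0.756 CPM. CDH1 of the same list went the other way, at 2.38 to 4.25 CPM and 7.82 to 9.68 CPM. Of the alveolar type II markers, SFTPA1 was at 0 in every sample and the list of 5 summed to at most 2.13 CPM. The 8 markers of blood, endothelial and fibroblast cells summed to 4.69 to 5.15 CPM in siControl and 3.07 to 3.36 CPM in siKMT9α#1, most of it COL1A1, and CD3E was at 0 throughout. The part of these marker differences in the results was not tested. N6AMT1 (chr21:30244513-30257693, hg19) measured 10.2, 10.8 and 11.5 CPM in the siControl samples and 2.87, 3.22 and 3.35 CPM in the siKMT9α#1 samples, so that the groups did not overlap (log2 fold change −1.77 ± 0.12 (SE), adjusted p = 1.4e-10).

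Most of the replication genes were higher after the knock-down. At an adjusted p under 0.05 (edgeR quasi-likelihood F test, Benjamini-Hochberg adjustment over 13877 genes), 40 of the 49 rose, 1 fell and 8 did not pass the test, where 37.1% of all genes tested rose and 38.5% fell. By the stricter threshold of the study (P under 1e-08 and a log2 fold change above 0.26 in size), 24 rose and 1 fell, against 13.5% and 10.7% of all genes. The median log2 fold change of the 49 genes was 0.65, and that of all genes tested was −0.01. CPM of the groups did not overlap for 42 members, 41 of them higher in siKMT9α#1 and 1 lower, where the groups stood apart upward for 37.6% and downward for 39.4% of all genes. For these the two-sided exact permutation test gave p = 0.1, the smallest that 3 against 3 samples allow. More than a 2-fold rise was seen for 16 members, against 10.1% of all genes. In bulk RNA a larger share of cells in S phase and more RNA of these genes per cell cannot be told apart. By flow cytometry, the paper found no significant shift in cell cycle phases with the same siRNA in this line. Those measurements included the day after transfection on which RNA was taken. The paper also reports a longer doubling time and lower viability after the knock-down. The share of cells in S phase was not tested in the RNA samples.

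**Figure D1:**
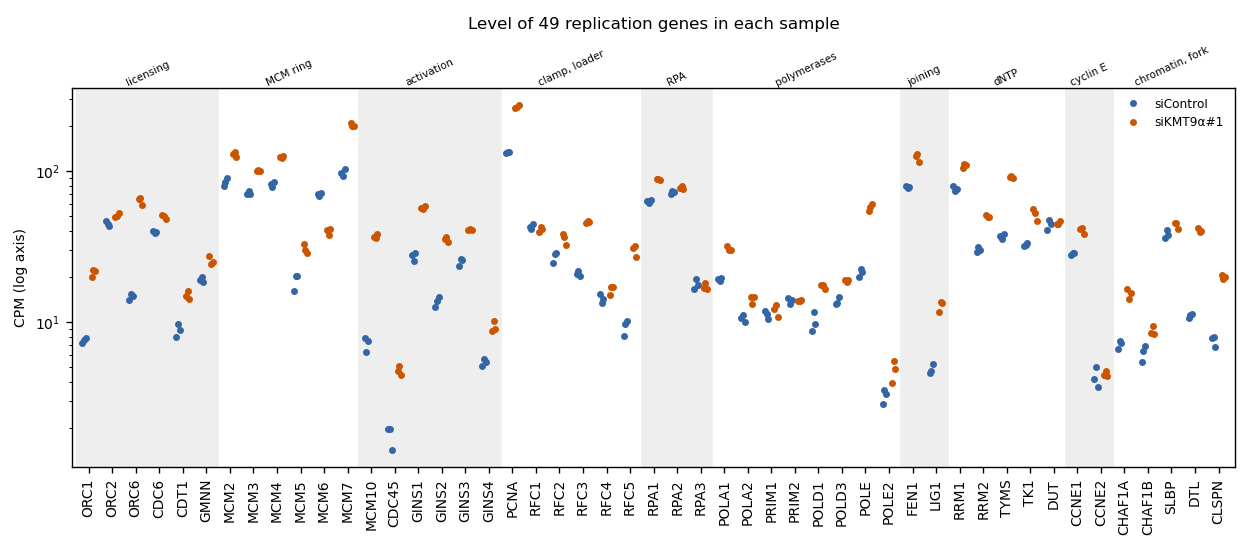
CPM of each of the 49 genes (log axis) in the 3 siControl samples (blue) and the 3 siKMT9α#1 samples (orange), 1 point per sample, in the order of their roles. The orange points lie above the blue ones for 41 genes, below them for MCM6, and among them for 7 genes.

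The promoters of the 3 genes with the largest rise, MCM10, ORC6 and DTL, are shown with that of MCM6, the gene that fell, because these genes mark the ends of the response. The promoter of RFC1, which did not pass the test (log2 fold change −0.05), was picked by hand to stand beside them. Each is the RefSeq sequence on GRCh38.p14 from 250 bases before to 50 bases after the start of the gene, written 5′ to 3′ on the strand of the gene, with matches on either strand to 3 kinds of motif in capitals. For E2F sites the words searched were TTTCCCGC, TTTCGCGC, TTTGCCGC and TTTGGCGC. The other motifs were the CCAAT box (CCAAT, read as ATTGG on the other strand) and the CHR element (TTTGAA or TTCGAA). Matches were exact and could overlap, and other forms of these sites were not searched. The windows are chr10:13161308-13161607, plus strand, for MCM10, chr16:46689409-46689708, plus strand, for ORC6, chr1:212035498-212035797, plus strand, for DTL, chr2:135876394-135876693, minus strand, for MCM6, and chr4:39366313-39366612, minus strand, for RFC1.
MCM10: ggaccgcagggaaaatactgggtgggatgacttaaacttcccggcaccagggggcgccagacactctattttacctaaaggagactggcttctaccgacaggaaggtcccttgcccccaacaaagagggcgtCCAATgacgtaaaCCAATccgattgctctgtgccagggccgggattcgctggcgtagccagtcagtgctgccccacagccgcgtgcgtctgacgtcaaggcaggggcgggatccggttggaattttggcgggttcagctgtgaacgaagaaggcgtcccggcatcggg
ORC6: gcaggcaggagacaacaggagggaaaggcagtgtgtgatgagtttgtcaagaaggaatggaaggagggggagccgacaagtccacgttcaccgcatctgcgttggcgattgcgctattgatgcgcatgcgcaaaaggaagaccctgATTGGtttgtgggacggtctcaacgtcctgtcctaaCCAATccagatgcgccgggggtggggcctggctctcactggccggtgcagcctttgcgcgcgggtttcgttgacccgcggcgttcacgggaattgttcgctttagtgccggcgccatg
DTL: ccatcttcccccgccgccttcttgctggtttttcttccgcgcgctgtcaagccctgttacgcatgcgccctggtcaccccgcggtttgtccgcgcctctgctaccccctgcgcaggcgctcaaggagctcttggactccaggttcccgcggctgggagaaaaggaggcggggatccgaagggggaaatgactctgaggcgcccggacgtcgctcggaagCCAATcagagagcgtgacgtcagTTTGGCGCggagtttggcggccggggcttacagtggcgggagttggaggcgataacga
MCM6: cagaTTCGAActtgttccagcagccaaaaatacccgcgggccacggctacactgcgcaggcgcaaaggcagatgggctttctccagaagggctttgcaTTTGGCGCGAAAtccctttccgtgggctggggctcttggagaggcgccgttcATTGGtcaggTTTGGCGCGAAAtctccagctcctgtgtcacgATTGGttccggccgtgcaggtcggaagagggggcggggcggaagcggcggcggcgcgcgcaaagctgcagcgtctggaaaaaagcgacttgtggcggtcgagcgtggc
RFC1: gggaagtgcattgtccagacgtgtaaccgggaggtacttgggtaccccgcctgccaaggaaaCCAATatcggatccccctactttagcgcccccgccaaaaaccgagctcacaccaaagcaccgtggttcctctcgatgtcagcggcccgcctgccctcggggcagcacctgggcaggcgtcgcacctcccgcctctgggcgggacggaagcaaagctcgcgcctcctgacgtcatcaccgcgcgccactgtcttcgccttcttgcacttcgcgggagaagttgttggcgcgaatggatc
The MCM10 and ORC6 promoters each held 2 CCAAT boxes and no match to the E2F words, while DTL held 1 of each. MCM6 held the most E2F matches of the 42 members with a promoter in the table, 4 of them in 2 overlapping pairs, with 2 CCAAT boxes and 1 CHR match, and RFC1 held 1 CCAAT box.

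CCNE2, GINS4, RPA2, RPA3, POLD3, MCM4 and MCM5 had no promoter entry. Of the 42 members with one, 21 held an E2F word in at least 1 entry, where 3.31% of all 35116 promoters of the table and 6.48% of the 10314 tested genes with an entry did. A CCAAT box was found for 25 (59.5%), against 34.6% of all promoters and 42.9% of the tested genes, and a CHR match for 3 (7.14%), against 16.4% and 15.6%. The median log2 fold change was 0.76 over the 21 members with an E2F word and 0.51 over the 21 without, and 19 and 17 of them rose. These are descriptions of letters in a fixed window and were not tested.

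All 6 licensing genes rose (median log2 fold change 0.59), by amounts from 0.18 to 2.11. ORC6, the smallest subunit of the origin recognition complex (deposited span chr16:46723558-46732306, hg19), measured 14.0, 15.4 and 14.8 CPM in siControl and 65.0, 66.5 and 59.3 CPM in siKMT9α#1. Every knock-down sample stood above every control sample, and the fold was 4.30 (log2 fold change 2.11 ± 0.07 (SE), adjusted p = 2.2e-15). ORC1, the large ATPase subunit whose protein is made anew in each cycle, rose by 1.49 ± 0.09 on the log2 scale (here and below, ± gives the SE of the fit unless an SD is named), and ORC2, a core subunit, by 0.18 ± 0.06, at an adjusted p of 0.0086. When libraries were scaled by their size alone, which moved the median of all genes by −0.11, the value for ORC2 was 0.07 and no longer passed.

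CDC6, the ATPase that joins the recognition complex at the origin, measured 40.2, 39.0 and 39.7 CPM in siControl and 50.8, 50.6 and 47.9 CPM in siKMT9α#1. The groups did not overlap, although the rise was among the 3 smallest that passed the test (log2 fold change 0.33 ± 0.06 (SE), adjusted p = 3.6e-05). For CDT1, which brings the MCM ring to the origin, the values were 7.96, 9.69 and 8.89 CPM and 14.9, 16.0 and 14.1 CPM (log2 fold change 0.76 ± 0.10 (SE), adjusted p = 1.0e-06). Its inhibitor GMNN measured 18.9, 19.8 and 18.4 CPM and 27.2, 24.2 and 25.1 CPM (log2 fold change 0.43 ± 0.07 (SE), adjusted p = 3.4e-05). All knock-down samples were above all controls for both genes. Per length of transcript, the ratio of CDT1 to GMNN was 0.199, 0.231 and 0.229 in siControl and 0.259, 0.312 and 0.265 in siKMT9α#1, and these groups did not overlap (exact permutation p = 0.1).

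In the MCM ring 5 subunits rose and 1 fell. MCM2 (deposited span chr3:127317253-127341278, hg19) measured 79.9, 84.3 and 89.2 CPM in siControl and 130.0, 133 and 124 CPM in siKMT9α#1 (log2 fold change 0.61 ± 0.05 (SE), adjusted p = 2.9e-09). MCM7 (chr7:99690404-99699427) measured 97.4, 93.1 and 103 CPM and 207, 199.8 and 198 CPM, which is 2.06-fold (log2 fold change 1.04 ± 0.05 (SE), adjusted p = 5.2e-13). Both were higher in every knock-down sample. The span of MCM7 overlaps AP4M1 and the genes of MIR25, MIR93 and MIR106B, whose reads could not be separated here. MCM3 rose by 0.50 ± 0.05, MCM4 by 0.60 ± 0.05 and MCM5 by 0.69 ± 0.09 on the log2 scale. With offsets for GC content and length, the log2 fold change of MCM4 was 0.39, still past the test.

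MCM6, a subunit of the same hexamer, went the other way. It measured 70.3, 68.2 and 71.4 CPM in siControl and 40.4, 38.0 and 41.4 CPM in siKMT9α#1, so that every knock-down sample was below every control (log2 fold change −0.81 ± 0.06 (SE), adjusted p = 1.0e-10). The value stayed between −0.91 and −0.77 under all 15 alternatives, and between −0.83 and −0.77 with each sample left out in turn. MCM6 was the only one of the 49 genes to fall in the main test (deposited span chr2:136597196-136634011, hg19).

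Since the 6 subunits form 1 ring in equal numbers as proteins, their RNA levels were also compared per length of transcript. In siControl the ratio of MCM6 to MCM2 was 0.806, 0.741 and 0.732 per length, and in siKMT9α#1 it was 0.285, 0.26 and 0.304. MCM6 made up 14.7% to 15.3% of the summed level of the ring in siControl and 5.35% to 5.91% in siKMT9α#1, while MCM7 made up 26.8% to 28.3% and 37.5% to 38.1%. MCM5 was the lowest subunit per length in all 3 siControl samples and MCM6 the lowest in all 3 siKMT9α#1 samples. The highest subunit, MCM7 in all 6 samples, exceeded the lowest by 4.17 to 5.43 times in siControl and 6.38 to 7.01 times in siKMT9α#1. Summed over the ring, the level was 126 ± 3.94 CPM per kb in siControl and 191 ± 3.06 CPM per kb in siKMT9α#1 (mean ± SD, n = 3 each).

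**Figure D2:**
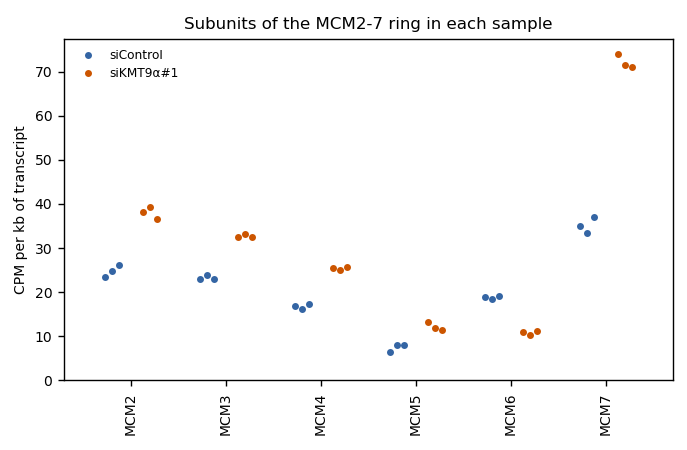
Level per length (CPM per kb of transcript, linear axis from 0) of the 6 subunits of the MCM2-7 ring in the 3 siControl (blue) and 3 siKMT9α#1 (orange) samples, 1 point per sample. The orange points are above the blue ones for 5 subunits and below them for MCM6.

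The 7-mer ACATTCA, which is complementary to bases 2 to 8 of the antisense strand of siKMT9α#1, occurred in the 3′ UTR of 2 of the 49 members, MCM6 and CDC6, at 1 place each. Among the 12763 tested genes with an annotated 3′ UTR, 14.1% held it, against 4.08% of the members, whose 3′ UTRs were shorter (median 935 bases, against 1337). Both sites are shown with the 7-mer in capitals, on the strand of the gene (GRCh37, GENCODE canonical transcripts). The MCM6 site is at chr2:136598240-136598246 on the minus strand, at base 159 of a 3′ UTR of 1209 bases, and the CDC6 site at chr17:38458475-38458481 on the plus strand, at base 222 of 2656.
MCM6: tcctatgtgtcACATTCAtcacaggtttc
CDC6: cctttttaattACATTCActacttctacc
One of these genes fell and the other rose. On the list of 60 further replication genes described below, ORC4, UHRF1 and SUPT16H, which fell, held the 7-mer at 1 place each. So did DBF4, CCNA2, RIF1 and ATR, which rose. The part of the site in any of these results was not tested.

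All 6 factors that turn the loaded ring into a running helicase rose, with a median log2 fold change of 1.21. MCM10, a scaffold that helps to start the helicase (deposited span chr10:13203554-13253104, hg19), measured 7.83, 6.36 and 7.46 CPM in siControl and 36.4, 35.8 and 38.5 CPM in siKMT9α#1. This was 5.08-fold, the largest change among the members, and 0.858% of all genes tested rose more (log2 fold change 2.35 ± 0.09 (SE), adjusted p = 8.3e-15). CDC45, the co-factor that rides with the ring, rose by 1.40 ± 0.17 on the log2 scale from a low level of 1.43 to 1.97 CPM, with 4.45 to 5.08 CPM after the knock-down. The 4 subunits of the GINS complex, which clasps CDC45 to the ring, all rose, GINS1 by 1.06 ± 0.06, GINS2 by 1.36 ± 0.07, GINS3 by 0.71 ± 0.06 and GINS4 by 0.78 ± 0.12. GINS2 stood at the top of this range and GINS3 at its bottom.

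Among the clamp and its loader, the clamp and 3 loader subunits rose and 2 subunits did not pass the test. PCNA, the sliding clamp that tethers the polymerases (deposited span chr20:5095599-5100647, hg19), measured 132, 133 and 134 CPM in siControl and 261, 266 and 274 CPM in siKMT9α#1. This was 2.00-fold, with an SD of 1.11 CPM in siControl and 6.30 CPM in siKMT9α#1 (log2 fold change 1.00 ± 0.05 (SE), adjusted p = 2.3e-13). PCNA was also the most abundant member per length, at 102 CPM per kb in siControl and 204 CPM per kb in siKMT9α#1. Its span overlaps PCNA-AS1.

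RFC5, a small subunit of the clamp loader, measured 8.04, 9.66 and 10.2 CPM in siControl and 31.0, 31.8 and 27.1 CPM in siKMT9α#1 (log2 fold change 1.68 ± 0.09 (SE), adjusted p = 5.3e-12), and it rose most in this group. RFC3 rose by 1.14 ± 0.06 and RFC2 by 0.39 ± 0.08 on the log2 scale. The large subunit RFC1 measured 42.5, 41.1 and 44.4 CPM and 39.7, 42.5 and 41.6 CPM, and its groups overlapped (log2 fold change −0.05 ± 0.06 (SE), adjusted p = 0.449). With offsets for GC content and length RFC1 was lower at −0.19, and with library size alone at −0.16, and both then passed the test. RFC4, whose span overlaps EIF4A2, measured 15.4, 13.4 and 14.3 CPM and 15.0, 17.2 and 17.0 CPM, with overlapping groups (log2 fold change 0.19 ± 0.09 (SE), adjusted p = 0.059), and it passed the test under 7 of the 15 alternatives, at values from 0.08 to 0.35 over all of them. The 5 subunits of this loader were spread over 1.73 on the log2 scale.

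Of the 3 subunits of RPA, the trimer that coats single-stranded DNA, the largest rose and 2 did not pass the test. RPA1 measured 63.1, 61.6 and 64.6 CPM in siControl and 88.4, 88.5 and 86.9 CPM in siKMT9α#1 (log2 fold change 0.48 ± 0.05 (SE), adjusted p = 4.0e-08). With offsets for GC content and length its log2 fold change was 0.32, still past the test. RPA2 measured 70.3, 73.7 and 72.9 CPM and 77.1, 80.0 and 75.5 CPM. These did not overlap, but the difference was small (log2 fold change 0.10 ± 0.05 (SE), adjusted p = 0.078), and it was −0.01 with library size alone. It passed the test at 0.20 with the GC and length offsets and at 0.12 without siKMT9α#1 replicate 3. RPA3 measured 16.6, 19.1 and 17.7 CPM and 16.9, 18.2 and 16.6 CPM with overlapping groups (log2 fold change −0.05 ± 0.08 (SE), adjusted p = 0.617).

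Of the 8 polymerase and primase genes 6 rose. POLE, the catalytic subunit of the leading-strand polymerase epsilon (deposited span chr12:133200348-133263945, hg19), measured 19.7, 22.4 and 21.3 CPM in siControl and 54.7, 57.3 and 60.6 CPM in siKMT9α#1, 2.73-fold higher (log2 fold change 1.45 ± 0.07 (SE), adjusted p = 2.4e-13). Its partner POLE2 rose by 0.56 ± 0.16 on the log2 scale, and per length the ratio of POLE to POLE2 went from 1.62, 1.50 and 1.50 to 3.25, 2.46 and 2.93 without overlap. POLD1, the catalytic subunit of the lagging-strand polymerase delta, rose by 0.79 ± 0.10 and its subunit POLD3 by 0.45 ± 0.08. For polymerase alpha, which extends the primers, the catalytic POLA1 rose by 0.67 ± 0.07 and the accessory POLA2 by 0.42 ± 0.09. The span of POLA1 overlaps SCARNA23.

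Both primase subunits, which make the RNA primers, did not pass the test. PRIM1 measured 11.8, 11.3 and 10.4 CPM in siControl and 12.2, 12.9 and 10.8 CPM in siKMT9α#1 (log2 fold change 0.09 ± 0.10 (SE), adjusted p = 0.422). PRIM2 measured 14.5, 13.2 and 13.9 CPM and 13.7, 13.8 and 14.0 CPM (log2 fold change −0.001 ± 0.08 (SE), adjusted p = 0.991). Groups of both genes overlapped. With the GC and length offsets PRIM1 was higher at 0.32 and passed, and PRIM2 was at 0.15 and did not.

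Both genes of Okazaki fragment joining rose. LIG1, the ligase that seals the fragments (deposited span chr19:48618703-48673560, hg19), measured 4.57, 4.75 and 5.25 CPM in siControl and 11.7, 13.7 and 13.4 CPM in siKMT9α#1 (log2 fold change 1.41 ± 0.11 (SE), adjusted p = 9.4e-10). FEN1, the nuclease that trims the flaps between them, rose by 0.65 ± 0.05 on the log2 scale. Per length FEN1 was above LIG1, at 34.1 against 1.60 CPM per kb in siControl and 53.7 against 4.27 CPM per kb in siKMT9α#1.

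Of the 5 genes of nucleotide supply 4 rose. TYMS, which makes thymidylate (deposited span chr18:657604-673499, hg19), measured 36.9, 35.2 and 38.0 CPM in siControl and 91.1, 92.7 and 90.1 CPM in siKMT9α#1 (log2 fold change 1.31 ± 0.05 (SE), adjusted p = 4.1e-14). Its span overlaps ENOSF1 and TYMSOS, whose reads could not be told apart from those of TYMS if strand was not used in counting. RRM2, the S-phase subunit of ribonucleotide reductase, measured 28.9, 31.2 and 30.2 CPM and 51.4, 49.3 and 49.6 CPM (log2 fold change 0.74 ± 0.06 (SE), adjusted p = 1.2e-09). The large subunit RRM1 rose by 0.51 ± 0.05 on the log2 scale, and the ratio of RRM2 to RRM1 per length was 0.338, 0.394 and 0.367 in siControl and 0.454, 0.409 and 0.418 in siKMT9α#1. TK1, the thymidine kinase of the salvage route, rose by 0.66 ± 0.07. DUT, which removes dUTP, measured 40.9, 47.4 and 44.5 CPM and 44.6, 44.9 and 46.9 CPM with overlapping groups (log2 fold change 0.04 ± 0.06 (SE), adjusted p = 0.546). It was higher at 0.13 with the GC and length offsets, and 1 of its other transcripts rose by 0.16, each past the test.

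Cyclin E binds CDK2 to drive the entry into S phase, and 1 of its 2 genes passed the test. CCNE1 measured 27.6, 28.7 and 28.5 CPM in siControl and 41.6, 41.9 and 38.1 CPM in siKMT9α#1, with no overlap (log2 fold change 0.51 ± 0.06 (SE), adjusted p = 5.2e-07). CCNE2 measured 4.19, 5.06 and 3.69 CPM and 4.46, 4.71 and 4.42 CPM, with overlap (log2 fold change 0.07 ± 0.15 (SE), adjusted p = 0.672). Its span overlaps INTS8. Per length CCNE1 exceeded CCNE2 by 9.24, 7.98 and 10.9 times in siControl and 13.1, 12.5 and 12.1 times in siKMT9α#1.

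All 5 genes of chromatin assembly, histone mRNA and fork control rose. DTL, the substrate receptor that marks CDT1 for destruction on PCNA (deposited span chr1:212208919-212278187, hg19), measured 10.7, 11.1 and 11.3 CPM in siControl and 42.1, 39.6 and 40.3 CPM in siKMT9α#1, 3.69-fold higher (log2 fold change 1.88 ± 0.07 (SE), adjusted p = 1.6e-14). Its span overlaps INTS7 and MIR3122. CLSPN, which carries the checkpoint signal from a stalled fork to CHEK1, measured 7.83, 7.90 and 6.81 CPM and 20.6, 19.1 and 19.9 CPM (log2 fold change 1.40 ± 0.09 (SE), adjusted p = 5.3e-11). For both genes the lowest knock-down sample was above the highest control. CHAF1A and CHAF1B, subunits of the histone chaperone that follows PCNA, rose by 1.12 ± 0.10 and 0.47 ± 0.12 on the log2 scale. SLBP, which binds histone mRNA, rose by 0.20 ± 0.06 (adjusted p = 0.0088), and with library size alone its 0.09 did not pass.

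**Figure D3:**
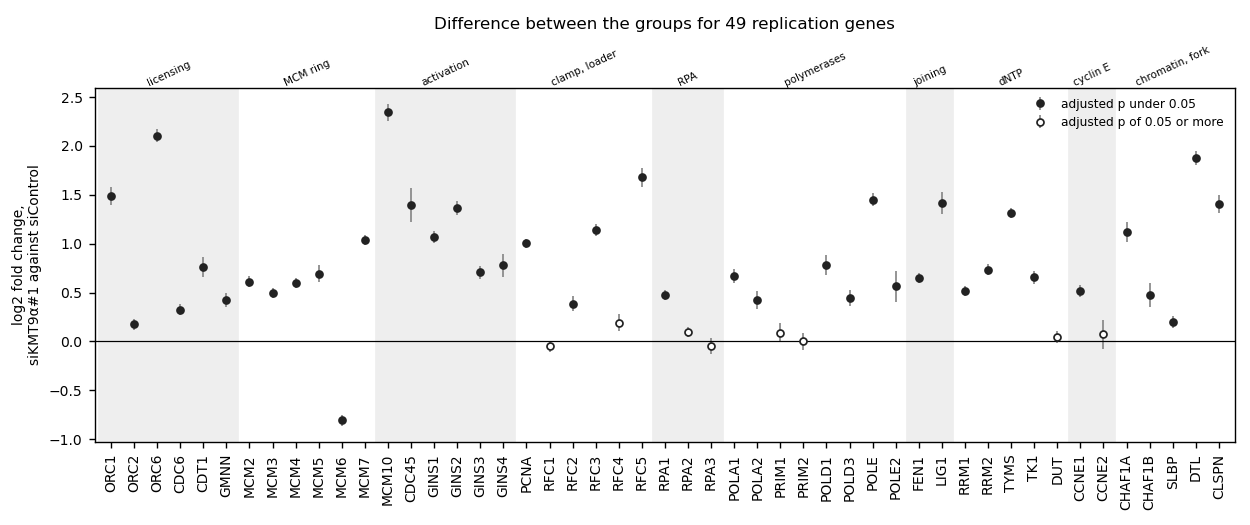
Log2 fold change of siKMT9α#1 against siControl for the 49 genes, in the order of their roles, with the standard error of the edgeR fit as bars. Filled points had an adjusted p under 0.05 (40 higher, 1 lower), and the 8 open points did not.

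The 8 members that did not pass were RFC1, RFC4, RPA2, RPA3, PRIM1, PRIM2, DUT and CCNE2. Their log2 fold changes lay between −0.05 and 0.19 with standard errors of 0.05 to 0.15. They spanned the range of levels, since RPA2, DUT and CCNE2 held ranks 2, 10 and 46 of 49 per length in siControl, at 42.5, 20.8 and 1.60 CPM per kb.

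The order of levels per length shifted with the knock-down. ORC6 went from rank 24 to rank 6 (8.82 to 38.0 CPM per kb), MCM10 from rank 45 to 33 (1.60 to 8.18), DTL from rank 40 to 30 (2.51 to 9.27) and GINS2 from rank 20 to 11 (11.7 to 30.1). MCM6 went from rank 12 to 29 (18.8 to 10.7). Summed over the 49 genes, the level was 648 ± 10.8 CPM per kb in siControl and 1059 ± 14.6 CPM per kb in siKMT9α#1 (mean ± SD, n = 3 each). PCNA was the largest part of that sum in both groups. Summed over the 6 helicase activation genes, the level was 34.4 ± 1.27 CPM per kb in siControl and 77.6 ± 0.862 CPM per kb in siKMT9α#1 (mean ± SD, n = 3 each).

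**Figure D4:**
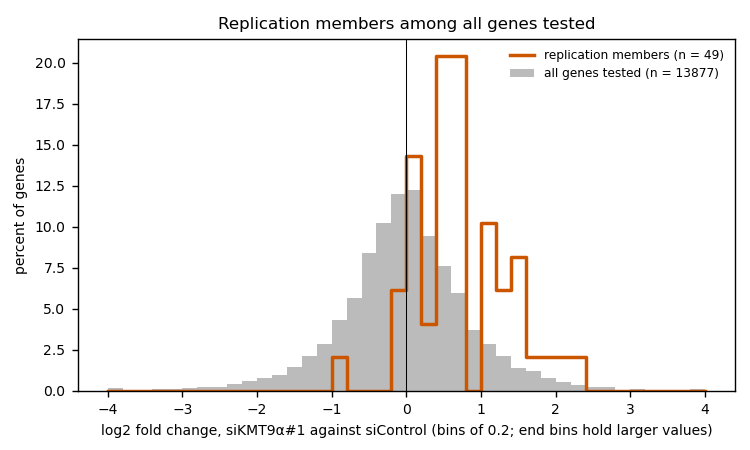
Percent of genes in bins of 0.2 of the log2 fold change, for all 13877 genes tested (grey bars) and the 49 members (orange line). The members have a median of 0.65, all genes of −0.01, and MCM6 is the single member below −0.2.

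Of the 49 members 19 had more than 1 transcript in the table, and all 28 of their other transcripts that could be tested had the sign of the transcript used for the gene. Transcripts of 1 gene share most of their reads, so these are not separate measurements.

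Further genes of the same process were taken from a list of 60 that holds no member. Of these 39 rose, 12 fell and 9 did not pass at an adjusted p under 0.05, where 37.1% of all genes tested rose and 38.5% fell. Past the stricter threshold 23 rose and 3 fell, against 13.5% and 10.7% of all genes. The median log2 fold change was 0.56. The largest rises were those of TOP2A, the topoisomerase that untangles sister chromatids, EXO1, an exonuclease, and TICRR, which brings CDC45 to the origin. TOP2A measured 25.9, 21.3 and 21.7 CPM in siControl and 152, 155 and 155 CPM in siKMT9α#1 (log2 fold change 2.74 ± 0.06 (SE), adjusted p = 2.1e-17). EXO1 measured 2.44, 2.62 and 2.70 CPM and 14.1, 18.4 and 15.1 CPM (log2 fold change 2.61 ± 0.13 (SE), adjusted p = 1.3e-12). TICRR, whose span overlaps KIF7, measured 3.24, 3.80 and 4.34 CPM and 22.2, 21.2 and 25.1 CPM (log2 fold change 2.59 ± 0.11 (SE), adjusted p = 1.5e-13). The groups of all 3 genes lay far apart.

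Genes that fell included subunits of the same complexes as members that rose. ORC4, a subunit of the origin recognition complex, measured 87.3, 76.0 and 76.6 CPM in siControl and 40.6, 39.4 and 43.5 CPM in siKMT9α#1 (log2 fold change −0.95 ± 0.06 (SE), adjusted p = 7.1e-11), and its span overlaps ACVR2A. Picked after their values were seen, ORC5 fell too (log2 fold change −0.34) and ORC3 rose (0.82), so that of 6 ORC genes 4 rose and 2 fell. POLD2, the second subunit of polymerase delta, measured 80.0, 91.9 and 89.3 CPM and 53.2, 48.9 and 46.2 CPM (log2 fold change −0.82 ± 0.06 (SE), adjusted p = 6.8e-10), in the opposite direction to POLD1 and POLD3. POLD4 and POLE4, also picked after their values were seen, fell (log2 fold change −0.41 and −0.65). POLE3, picked likewise, did not pass the test (log2 fold change 0.01, adjusted p = 0.797). With offsets for GC content and length, the log2 fold change was −0.12 for POLD4, −0.48 for POLE4, −0.17 for ORC5 and 0.96 for ORC3. Each of these still passed the test. UHRF1, which guides maintenance methylation behind the fork and whose span overlaps MIR4747, measured 14.6, 17.3 and 17.8 CPM and 9.71, 9.13 and 10.7 CPM (log2 fold change −0.74 ± 0.10 (SE), adjusted p = 2.0e-06).

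Around the start of S phase, CDK2, the kinase partner of cyclin E, measured 9.37, 10.6 and 12.4 CPM in siControl and 51.6, 48.8 and 46.3 CPM in siKMT9α#1 (log2 fold change 2.18 ± 0.09 (SE), adjusted p = 2.5e-14). E2F1 measured 3.90, 4.17 and 4.39 CPM and 10.7, 9.24 and 11.5 CPM (log2 fold change 1.34 ± 0.12 (SE), adjusted p = 7.5e-09). The 2 subunits of the kinase that fires origins went apart. CDC7, the catalytic one, measured 14.4, 13.6 and 12.1 CPM and 7.82, 9.43 and 9.39 CPM (log2 fold change −0.58 ± 0.10 (SE), adjusted p = 5.4e-05), and DBF4, its activator, whose span overlaps SLC25A40, measured 19.7, 22.2 and 19.9 CPM and 28.7, 29.2 and 29.2 CPM (log2 fold change 0.50 ± 0.07 (SE), adjusted p = 3.3e-06).

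For the nucleotide pool, RRM2B, the reductase subunit that p53 induces, measured 75.0, 76.0 and 69.5 CPM in siControl and 97.5, 94.3 and 109 CPM in siKMT9α#1 (log2 fold change 0.45 ± 0.06 (SE), adjusted p = 9.4e-07). The ratio of RRM2 to RRM2B per length was 0.554, 0.591 and 0.625 in siControl and 0.759, 0.752 and 0.657 in siKMT9α#1, without overlap. SAMHD1, which breaks down deoxynucleotides and whose span overlaps TLDC2, measured 11.8, 13.6 and 13.2 CPM and 9.22, 8.29 and 8.81 CPM (log2 fold change −0.55 ± 0.10 (SE), adjusted p = 5.4e-05). In every knock-down sample RRM2B was above and SAMHD1 below all controls.

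**Figure D5:**
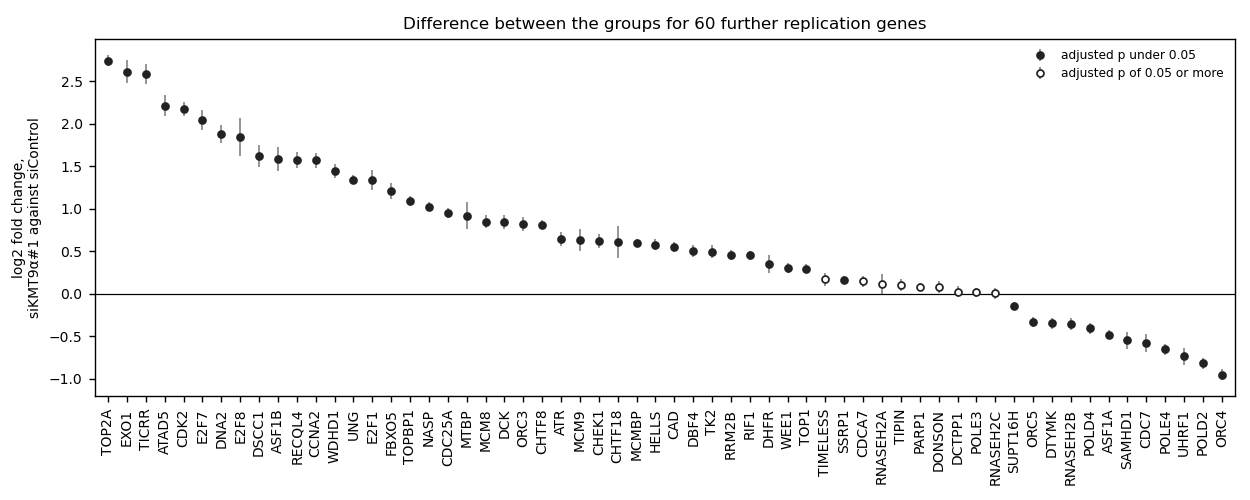
Log2 fold change of siKMT9α#1 against siControl for 60 further replication genes, sorted by value, with the standard error of the edgeR fit as bars. Filled points had an adjusted p under 0.05 (39 higher, 12 lower), and TOP2A stands at one end at 2.74 and ORC4 at the other at −0.95.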

How the data were processed

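RNA-Seq of 6 A549 samples, 3 with siControl and 3 with siKMT9α#1, was analysed. Reads had been aligned by the authors to hg19 (STAR), with HOMER counting them for RefSeq transcripts, and the deposited values are estimated counts per transcript, not normalized. Counting options and strand are not given in the sources used here. The authors' own edgeR columns (linear fold changes with raw and adjusted p-values) were not used. For each symbol the transcript with the highest count over the 6 samples was kept, and counts were rounded to whole numbers. They were fitted with edgeR 4.0.16 (R 4.3.3), with TMM factors, filterByExpr and the two-sided quasi-likelihood F test. The fit had first been tested on simulated data in which far fewer genes differed than here. That check therefore does not cover changes as broad as these. CPM values carry the TMM factors, and CPM per kb divides them by the deposited length. Promoters came from RefSeq (GRCh38.p14), 3′ UTRs and GC content from GENCODE (GRCh37), and spans from the deposited table.

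The members, the role groups, the list of 60 and the tests were chosen with earlier results of these data known. All 49 members were named, and CPM in every sample was given for N6AMT1, the largest rise and fall of each role group, the members that did not pass the test, and MCM2, CDC6, CDT1, GMNN, PCNA, RRM2, CCNE1, CCNE2, DTL and CLSPN. From the list of 60 the 3 largest rises and falls and 6 fixed genes were named, and ORC3, ORC5, POLD4 and POLE4 were added after their values were seen. Alternatives were RLE factors, library size alone, all genes unfiltered, a minimum of 10 counts per sample, DESeq2 1.42.0, the likelihood-ratio test, the sum of all transcripts, a replicate block, GC and length offsets, and each sample left out in turn. Every transcript as a row of its own was added after seeing the data.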

Additional observations from a re-analysis of the deposited data

How the results depend on the processing

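Of 735 values of single members under the 15 alternatives, 703 kept their direction and their side of the test, as did all 195 values of N6AMT1 and of the 12 genes that the rule named from the list of 60. The number of members that rose was 38 to 44 under the alternatives that kept all samples and 40 or 41 with a sample left out. The number that fell was 2 in place of 1 with library size alone and with the GC and length offsets, where RFC1 joined MCM6. The median over the members was 0.54 with library size alone, and it ranged from 0.62 to 0.69 with a sample left out, highest without siKMT9α#1 replicate 3. The GC and length offsets moved single members both ways. CLSPN was at 1.05 in place of 1.40, POLE at 1.20 in place of 1.45 and TK1 at 0.92 in place of 0.66. Each of these still passed the test.

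Calls past the stricter threshold moved most. Over all genes there were 3357, against 6070 without the filter, 5962 with the likelihood-ratio test and 2164 with the sum of all transcripts. The list of 60 had 3 genes lower, against 6 without the filter, 6 with the likelihood-ratio test and 1 with the sum of all transcripts, and 2 to 4 with a sample left out. Members higher past it numbered 15 to 31 with all samples kept and 17 to 25 with a sample left out. The cause was not tested.

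Whether the replicate numbers pair the samples is not stated. The correlations of deviations from the group means were −0.08, 0.02 and −0.08 for numbers 1, 2 and 3. These show no shared variation by number, but not how the samples were handled. A replicate block left 15 members higher past the stricter threshold, in place of 24, and kept the counts at the adjusted p, 40 that rose and 1 that fell.

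Signs turned only for members that had not passed the test. Without TMM factors, by library size alone, the log2 fold change was −0.0055 for RPA2, −0.016 for PRIM1, −0.063 for DUT and −0.034 for CCNE2. RPA3 was at 0.071 with the GC and length offsets. PRIM2 was at 0.011 with RLE factors, 0.010 without the filter, 0.011 with DESeq2, 0.012 with the sum of all transcripts, 0.00023 with the replicate block and 0.15 with the GC and length offsets. With each sample left out in turn, RPA3 ranged from −0.083 to 0.013, PRIM2 from −0.025 to 0.050 and CCNE2 from −0.023 to 0.20.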
